A study of Homo sapiens with 37 samples.

Results

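The genes described here are HSPA1A, HSPA1B, HSPA8, DNAJB1, HSPH1 and BAG3, which encode the HSP70, HSP40 and HSP110 chaperones and an HSP70 partner. They were taken by their Ensembl gene IDs (ENSG00000204389, ENSG00000204388, ENSG00000109971, ENSG00000132002, ENSG00000120694 and ENSG00000151929, in that order), 6 of the 60483 rows in each of 2 count tables. All 6 passed the filter on low counts in every fit. The study labelled RNA in HEK293T, an embryonic kidney cell line of human origin, with APEX, a peroxidase that tags nearby RNA with biotin-phenol in the presence of H2O2. Each cell population carried 1 fusion protein. RNA bound to streptavidin is called the pulldown, and total RNA of cells with that construct the input.

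The naive table held 20 libraries of unstressed cells, 2 inputs and 2 pulldowns for each of 5 constructs: APEX-CBX1 (a chromatin protein), C1-APEX (whose name the labels do not explain), APEX-GFP, APEX-eIF4E (the cap-binding protein) and APEX-eIF4A (the helicase of the same initiation complex). The stress table held 17 libraries, all from cells with APEX-eIF4A. There, T0 was unstressed and T4 and T20 were heat shock, with the unit of T not given in the labels. The remaining cells received hippuristanol, an inhibitor of eIF4A, or the solvent DMSO. T0, T20 and hippuristanol had 2 inputs and 2 pulldowns each, T4 had 1 of each, and DMSO had 1 input and 2 pulldowns. A T0 or DMSO cell therefore also carried the eIF4A fusion, and no stress library came from cells without it. Neither the promoter of the constructs nor the number of clones is given in the sources used here. The 2 hippuristanol inputs were grouped by their titles, although their stress label reads heat shock. The name given for the DMSO input column also occurs in the description of a naive eIF4A input. The labels do not say that replicates were separate cultures, so p-values measure only how far these libraries lay apart, and that spread may be technical.

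HSP70 proteins bind unfolded stretches of other proteins and release them in a cycle driven by ATP. DNAJB1, an HSP40, brings substrates to HSP70 and stimulates its ATPase, while HSPH1, an HSP110, and BAG3 promote nucleotide exchange. HSPA8 is the HSP70 made in unstressed cells, and HSPA1A and HSPA1B encode near-identical stress-inducible HSP70. In heat shock, the transcription factor HSF1 binds heat shock elements, inverted repeats of GAA, and drives transcription of several of these genes.

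The sequences upstream of the HSP70 genes and DNAJB1 are shown because the comparisons turn on how these genes differed from each other. They are the 200 bases before the start listed by RefSeq (GRCh38.p14), 5′ to 3′ on the gene's strand, with each inverted repeat GAANNTTC or TTCNNGAA in capitals. HSPA1A lies at chr6:31815343-31815542 (+), HSPA1B at chr6:31827538-31827737 (+), HSPA8 at chr11:123062137-123062336 (-) and the second of 3 listed DNAJB1 starts at chr19:14518398-14518597 (-).
HSPA1A: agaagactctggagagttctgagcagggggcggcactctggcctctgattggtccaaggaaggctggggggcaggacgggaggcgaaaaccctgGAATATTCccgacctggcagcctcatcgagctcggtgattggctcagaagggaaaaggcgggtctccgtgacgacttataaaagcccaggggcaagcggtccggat
HSPA1B: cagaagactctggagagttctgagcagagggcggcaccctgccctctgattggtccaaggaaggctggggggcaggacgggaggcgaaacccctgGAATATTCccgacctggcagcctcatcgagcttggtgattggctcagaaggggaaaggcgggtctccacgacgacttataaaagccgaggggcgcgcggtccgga
HSPA8: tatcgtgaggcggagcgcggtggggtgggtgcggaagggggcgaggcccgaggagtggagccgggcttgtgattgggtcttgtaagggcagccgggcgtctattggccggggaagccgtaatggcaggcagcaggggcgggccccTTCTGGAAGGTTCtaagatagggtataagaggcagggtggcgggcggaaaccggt
DNAJB1: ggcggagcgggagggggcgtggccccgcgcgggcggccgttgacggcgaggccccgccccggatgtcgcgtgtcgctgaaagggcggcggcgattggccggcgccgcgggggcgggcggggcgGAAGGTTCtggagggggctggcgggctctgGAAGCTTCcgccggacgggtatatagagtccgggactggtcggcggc

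All 6 genes had a RefSeq promoter entry, with 8 listed starts in all. GAANNTTC, which reads the same on both strands, stood in 5.78% of the 35116 windows of 250 bases before a listed start. HSPA1A had 1 match, at -106, and HSPA1B 1, at -105. DNAJB1 had 2 at the second start, at -77 and -47, and none at the other 2 starts. HSPA8 had 2 matches, at -230 (outside the 200 bases printed) and -50. Each of these overlapped a match of TTCNNGAA, which stood in 6.62% of windows. In each pair the motifs shared 3 letters, which made 2 elements of 3 units, and such an element stood in 0.441% of windows on either strand. HSPH1 and BAG3 had no match of these motifs in their windows, which says only that these letters are not there. The windows of HSPA1A and HSPA1B were identical in 235 of 251 aligned columns (93.6%), against 50.4% for HSPA1A and HSPA8. A match describes letters and is not a measured binding site.

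Total counts were 4540426 to 7782943 in stress inputs and 707356 to 1221213 in stress pulldowns. They were 1419968 to 2629957 in naive inputs and 1718517 to 3276410 in naive pulldowns, where the 10 highest rows held 68.6% to 75.3% and 55.6% to 70.0% of counts. HSPA1A and HSPA1B lie 9795 bases apart on chromosome 6. Reads can match both genes, and no source used here says how such reads were counted, so the split between the 2 is uncertain. HSPA1B held 1.19 to 1.48 counts per HSPA1A count in stress inputs and 1.08 to 1.74 in stress pulldowns. In the naive table this ratio was 1.24 to 1.67 in inputs and 1.40 to 1.69 in pulldowns. Bulk RNA cannot tell a change in every cell from a change in the share of cells that express a gene.

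Between T0 and T20, DNAJB1 and HSPA1B rose in total RNA of APEX-eIF4A cells. DNAJB1 was 4.43-fold higher and HSPA1B 3.08-fold higher at T20. HSPA1A moved with its near-identical copy, 3.20-fold, with an adjusted p of 0.058 that missed the threshold of 0.05. HSPA8, HSPH1 and BAG3 were not called. Thus 2 of 6 genes were called, both higher, against 0.807% of the 20438 tested rows called higher (edgeR, adjusted p under 0.05). The test takes the inputs as independent of each other, and which of the 6 genes were called depended on that model.

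DNAJB1, the HSP40, stood at 73.3 and 78.3 CPM (counts scaled by TMM to a common library size among stress inputs) in the T0 inputs and at 317 and 354 CPM in the T20 inputs. The single T4 input held 62.1 CPM (95% Poisson interval 56.2 to 68.3, counting error only), the DMSO input 75.7 and the hippuristanol inputs 83.1 and 68.5. Both T20 libraries thus lay far above all 6 other inputs, which spanned 62.1 to 83.1 CPM. For this and later statements that groups lay apart, the share of all rows so separated was not counted. The log2 fold change of T20 over T0 was 2.15 ± 0.29 (SE, n = 2 and 2; edgeR adjusted p = 0.0037). The call was lost without T20 input replicate 2 (log2 fold change 2.06, adjusted p = 0.056). It was also lost when the spread between replicates was estimated over inputs and pulldowns together (2.26, edgeR adjusted p = 0.33).

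HSPA1A, an inducible HSP70, measured 24.0 and 44.4 CPM at T0 and 121 and 96.2 CPM at T20 in inputs. HSPA1B measured 35.5 and 52.8 CPM at T0 and 151 and 120 CPM at T20. For both genes every T20 input lay above both T0 inputs, and the T0 replicates differed among themselves by more than those of DNAJB1. The log2 fold changes were 1.68 ± 0.37 for HSPA1A (edgeR adjusted p = 0.058) and 1.62 ± 0.34 for HSPA1B (edgeR adjusted p = 0.041; SE, n = 2 and 2). With the counts of both genes summed, the log2 fold change was 1.64 ± 0.35 (edgeR adjusted p = 0.045). Among the fits with 1 library left out, the HSPA1B call was lost without either T20 input, at an edgeR adjusted p of 0.31 without replicate 1 and 0.19 without replicate 2. It was also lost with a spread common to both fractions (edgeR adjusted p = 0.92).

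The HSP70 pair was also high where DNAJB1 was not. HSPA1A stood at 116 CPM in the single DMSO input (95% Poisson interval 108 to 124) and at 131 and 78.5 CPM in the hippuristanol inputs. HSPA1B stood at 140 CPM in DMSO and at 158 and 102 CPM in hippuristanol. These values overlapped those at T20, whereas the T4 input had 22.8 CPM of HSPA1A and 31.5 of HSPA1B, below both T0 inputs. For both genes the T4 input was within counting error of the lower T0 input (95% Poisson intervals 19.4 to 26.7 and 27.4 to 36.0). In order of mean HSPA1A level, T4 was lowest, followed by T0 (34.2 ± 14.4 CPM, SD), hippuristanol (105 ± 37), T20 (109 ± 17.7) and DMSO. The last 3 did not differ beyond their spread: T20 over DMSO was -0.10 ± 0.44 and T20 over hippuristanol 0.05 ± 0.36 on the log2 scale (SE).

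Against T0, HSPA1A was higher by 1.77 ± 0.43 in the DMSO input and by 1.62 ± 0.37 in hippuristanol, and HSPA1B by 1.67 ± 0.39 and 1.57 ± 0.34 (log2, SE). Neither gene passed the test, with edgeR adjusted p-values of 0.61 for HSPA1B in DMSO and of 0.23 and 0.20 for HSPA1A and HSPA1B in hippuristanol. No row of the table did (0% called). Over all rows, 1373 and 2032 had an unadjusted edgeR p under 0.05, and DESeq2 called 40 and 158. The count of 0 rows rested on the T0 inputs: without T0 replicate 1 it was 139 for DMSO and 835 for hippuristanol, and without T0 replicate 2 it was 9 and 25. In hippuristanol, HSPA1A and HSPA1B were then called without replicate 1 (edgeR adjusted p = 0.0499 and 0.035) and without replicate 2 (0.012 and 0.027). In DMSO, HSPA1A was called without T0 replicate 2 (log2 fold change 2.27, edgeR adjusted p = 0.022). The log2 fold change of DNAJB1 from T0 was -0.00052 ± 0.35 in DMSO and 0.00024 ± 0.28 in hippuristanol (SE). The comparisons of DMSO and hippuristanol with T0, and of T20 with both, were added after the values were seen, and the lone DMSO and T4 inputs are assumed to vary like the replicated groups.

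Set against DMSO and hippuristanol in place of T0, DNAJB1 was the 1 gene of the 6 called at T20. It was higher by 2.15 ± 0.38 over DMSO (edgeR adjusted p = 0.041; 0.152% of rows called higher) and by 2.15 ± 0.29 over hippuristanol (edgeR adjusted p = 0.0032; 1.18% called higher). The call over DMSO was lost without T20 input replicate 1 or 2 (edgeR adjusted p = 0.16 and 0.34), with library-size scaling (0.17) and with a spread common to both fractions. The call over hippuristanol was kept with any 1 of its 4 libraries left out and lost with the common spread (edgeR adjusted p = 0.33). These comparisons share the T20 inputs with T20 over T0.

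HSPA8, the constitutive HSP70, stood at 453 and 427 CPM at T0, 369 and 385 at T20, 415 at T4, 513 in DMSO and 413 and 474 in hippuristanol. Both T20 inputs were the lowest of the 8 with this scaling, and the change from T0 was -0.22 ± 0.27 (log2 ± SE, edgeR adjusted p = 0.73). Scaled together with the pulldowns, T20 input replicate 2 (368 CPM) lay above T0 input replicate 2 (361) and hippuristanol input replicate 1 (351). The change of HSPA8 reversed sign in 1 of 12 alternatives. Its upstream window was the one of the 6 genes with exact matches of the 3-unit motifs. Imperfect units were not searched for, and a relation of such matches to RNA level was not tested. HSPH1, the HSP110, was highest in the T20 inputs, at 68.9 and 94.4 CPM, against 49.4 and 32.2 at T0 and 39.0 to 47.3 in the other inputs. Its T0 and T20 inputs did not overlap, a separation whose share over all rows was not counted. The change of 0.99 ± 0.34 (edgeR adjusted p = 0.21) was not called. BAG3 had 21.5 and 11.4 CPM at T0 and 29.4 and 25.5 at T20. The DMSO input, at 28.4 CPM, and a hippuristanol input, at 25.4, overlapped or came close to T20, and the change of 0.72 ± 0.40 was not called (edgeR adjusted p = 0.43). The median log2 fold change of the 6 genes was 1.31, against -0.02 over all tested rows.

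**Figure D1:**
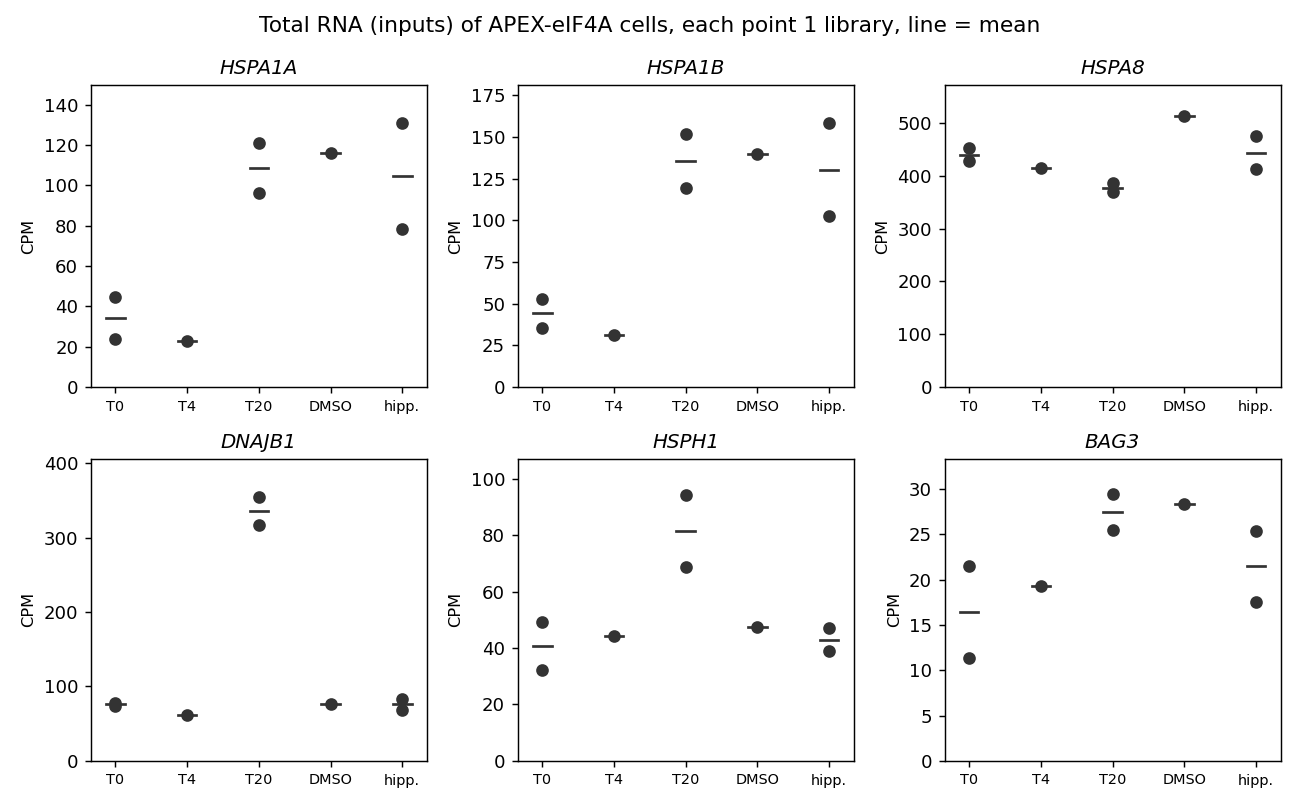
CPM of each gene in the 8 stress inputs, by condition (vertical axes start at 0; each point is 1 library and each line a mean; hipp. is hippuristanol). DNAJB1 is high only in the 2 T20 inputs among those shown, whereas HSPA1A and HSPA1B are high at T20, in DMSO and in hippuristanol.

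At T4 none of the 6 chaperone genes was called against T0 in total RNA (edgeR; 0% of rows), with log2 fold changes whose median was -0.19. An unadjusted p under 0.05 was found in 369 rows. Hippuristanol over DMSO in inputs likewise gave no call (0% of rows, edgeR; 364 rows at an unadjusted p under 0.05), and DESeq2 called 0 rows in both comparisons. The median of the 6 genes was -0.14 for hippuristanol over DMSO. In both comparisons 1 side was a single library.

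In the pulldowns, RNA near eIF4A, the same genes were measured on far fewer counts. DNAJB1 stood at 59.8 and 26.4 CPM at T0 (45 and 12 counts) and at 157 and 302 CPM at T20 (164 and 382 counts). Both T20 pulldowns were above both T0 pulldowns, and the replicates lay further apart than those of the inputs. The log2 fold change was 2.39 ± 0.67 (SE, n = 2 and 2; edgeR adjusted p = 0.056), so none of the 6 genes was called, against 0.58% of 14839 tested rows. DNAJB1 was called by DESeq2 (adjusted p = 0.0051) and with library-size scaling (edgeR adjusted p = 0.026). The log2 fold change was 3.11 without T0 pulldown replicate 1. Without T0 replicate 2 or T20 replicate 2 it was 1.94 and 1.85.

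HSPA1A in pulldowns was 33.2 and 41.7 CPM at T0, 60.3 and 68.7 at T20, 76.7 and 88.0 in hippuristanol and 126 and 140 in DMSO. HSPA1B was 51.8 and 54.9 CPM at T0, 94.8 and 98.8 at T20, 116 and 119 in hippuristanol and 157 and 151 in DMSO. For both genes the order T4, T0, T20, hippuristanol, DMSO held with no overlap between groups, with T4 at 22.3 and 38.7 CPM. These levels rested on 19 to 209 counts per library, and some neighbouring groups overlapped within counting error. For HSPA1A the 95% Poisson intervals were 25.1 to 65.2 CPM in T0 replicate 2 and 46.4 to 77.2 in T20 replicate 1. In inputs the mean of hippuristanol lay under that of T20 for both genes. How many of all rows held such an order was not counted. The differences between these pulldown groups were not called. T20 over T0 was 0.79 ± 0.77 and 0.86 ± 0.66, and DMSO over T0 was 1.83 ± 0.78 and 1.53 ± 0.67 (log2, SE; edgeR adjusted p = 0.51 and 0.52 for DMSO), a comparison in which 0.701% of rows were called. DMSO thus gave the highest pulldown level of the HSP70 pair. Among inputs its single library was above the other group means, but hippuristanol input replicate 1 was higher (131 against 116 CPM of HSPA1A). With both fractions scaled together, the T20 inputs had a higher mean than the DMSO input. These levels were 101 against 98.2 CPM for HSPA1A and 126 against 118 CPM for HSPA1B.

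DNAJB1 in DMSO pulldowns, at 94.9 and 166 CPM, lay above T0, which was not so in the DMSO input. Its change from T0 was 1.57 ± 0.65 (edgeR adjusted p = 0.48) and that of hippuristanol over DMSO was -1.27 ± 0.64 (edgeR unadjusted p = 0.047, adjusted p = 1.0), with hippuristanol pulldowns at 42.6 and 64.9 CPM. No gene of the 6 was called between hippuristanol and DMSO pulldowns, against 0.0607% of rows. HSPA8 pulldowns ranged from 157 to 371 CPM. Its T0 replicates, at 178 and 365 CPM, spanned most of that range. HSPH1 went from 106 and 68.1 CPM at T0 to 45.0 and 35.6 at T20, the opposite order to inputs, with a log2 fold change of -1.12 ± 0.94. BAG3 rested on 1 to 44 counts per pulldown, and its T0 replicates stood at 9.3 and 81.3 CPM. At T4 none of the 6 was called in pulldowns (0.297% of rows).

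**Figure D2:**
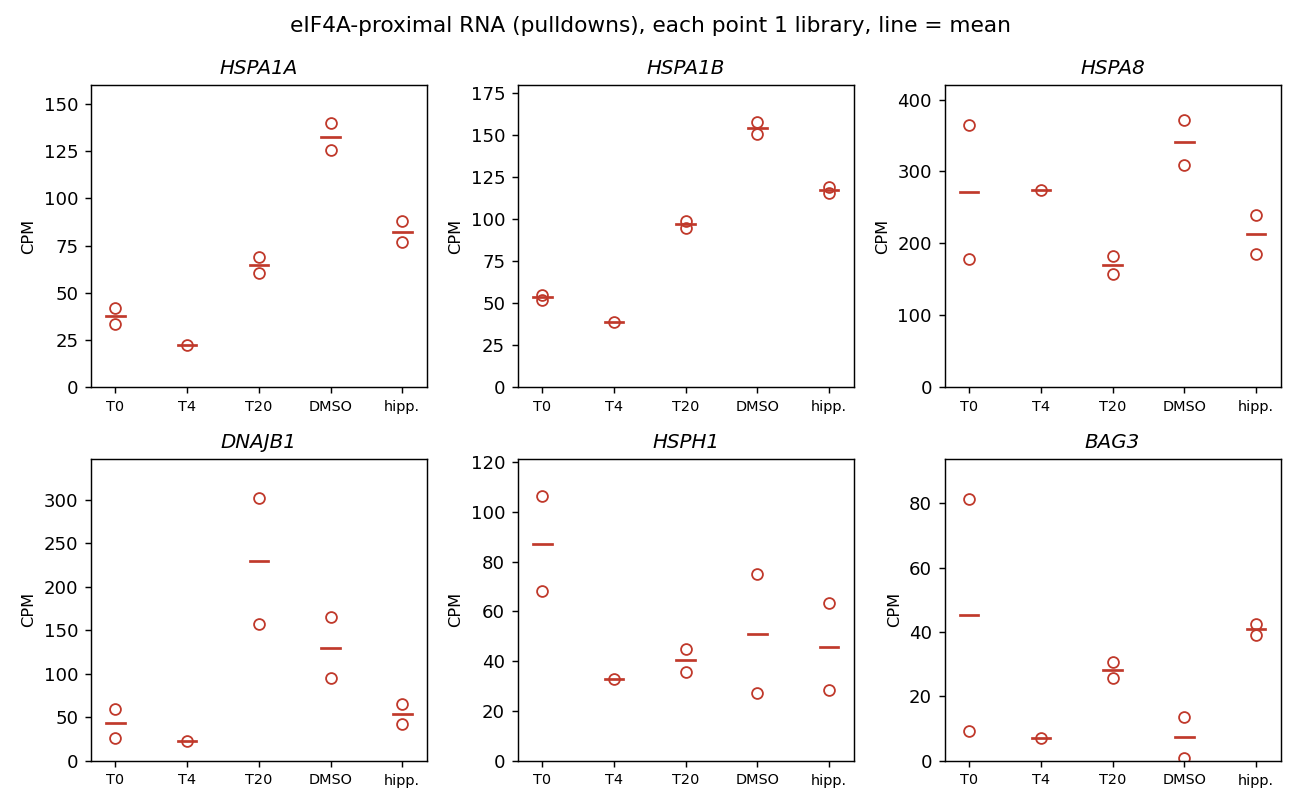
CPM of each gene in the 9 stress pulldowns, by condition (axes start at 0; each point is 1 library and each line a mean; hipp. is hippuristanol). HSPA1A and HSPA1B are highest in DMSO, the mean of DNAJB1 is highest at T20, and the T0 replicates of HSPA8 and BAG3 lie far apart.

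Whether eIF4A proximity changed beyond total RNA was asked by comparing pulldown over input at T20 with that at T0. None of the 6 genes was called, nor was any row (0% by edgeR; 1226 rows at an unadjusted p under 0.05; 82 called by DESeq2). HSPH1 came nearest, with pulldown over input lower at T20 by 2.19 ± 1.00 on the log2 scale (-2.19; edgeR unadjusted p = 0.040, adjusted p = 0.68). For DNAJB1 the difference was 0.16 ± 0.70 (log2, SE), so a change of that size in either direction was not detectable with these libraries. Within T0, T20 and hippuristanol no gene of the 6 was called in pulldown over input, against 0.36%, 0.372% and 0.252% of 16678 rows. The median of all rows in these 3 comparisons was -0.55, -0.29 and -0.36, and that of the 6 genes 0.56, -0.36 and 0.16.

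**Figure D3:**
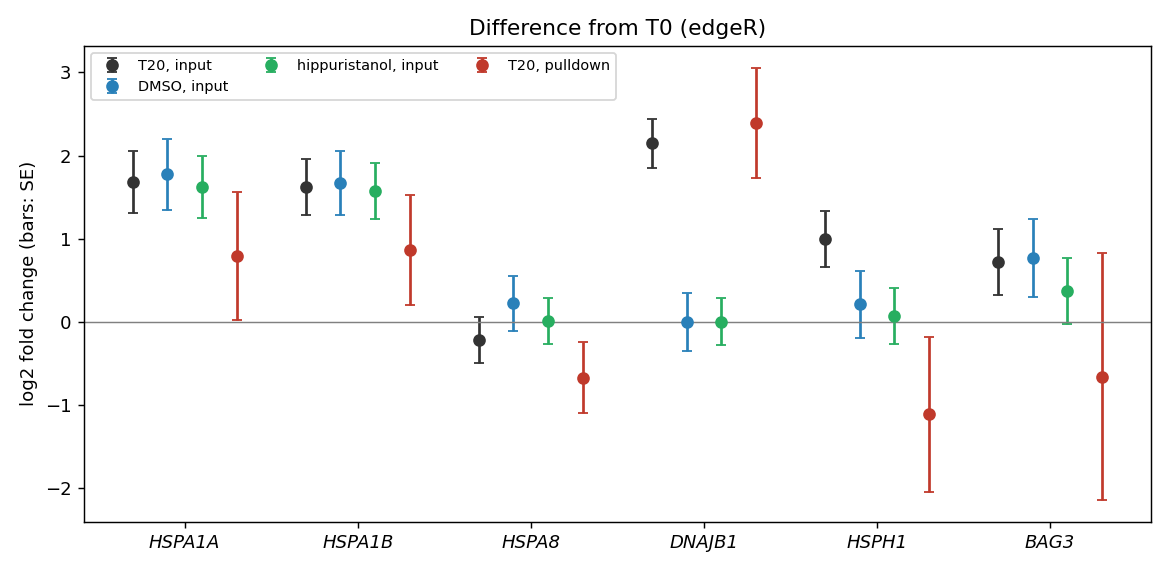
Log2 fold change from T0 for each gene, with bars of 1 SE (edgeR): T20, DMSO and hippuristanol inputs and T20 pulldowns. DNAJB1 is near 0 in DMSO and hippuristanol inputs and above 2 at T20 in both fractions, and HSPA1A and HSPA1B lie between 1.57 and 1.77 in all 3 input comparisons.

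In unstressed cells the constructs' total RNA differed in these genes. Inputs of C1, eIF4E and eIF4A cells held less HSPA8 and HSPH1 than those of GFP cells, and C1 and eIF4A inputs also held less HSPA1A and HSPA1B. DNAJB1 was higher in eIF4E inputs, and HSPA8 was higher in CBX1 inputs. The 4 comparisons share the 2 GFP inputs. The levels that follow are CPM scaled by TMM over the 20 naive libraries and are not comparable with those of the stress table.

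HSPA8 stood at 398 and 430 CPM in GFP inputs, 553 and 542 in CBX1, 199.97 and 199 in C1, 238 and 174 in eIF4E and 226 and 192 in eIF4A. The GFP and CBX1 inputs did not overlap with each other or with the other 3 constructs, whose values overlapped. Against GFP, C1 was at -1.03 ± 0.10, eIF4E at -0.999 ± 0.11 and eIF4A at -0.98 ± 0.10 (log2, SE; edgeR adjusted p = 2.3e-09, 8.0e-10 and 4.8e-09). These 3 calls held in every alternative and with every single library left out (largest edgeR adjusted p = 0.00053, 0.00016 and 0.0012). CBX1 was at 0.39 ± 0.09 (edgeR adjusted p = 0.020), a call lost with library-size scaling (0.19), with DESeq2 (0.24) and without any 1 of the 4 libraries compared (0.058 to 0.29).

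HSPA1A stood at 42.7 and 53.6 CPM in GFP inputs, against 16.7 and 15.1 in eIF4A and 28.3 and 33.5 in C1. In CBX1 (57.9 and 60.6 CPM) and eIF4E inputs (55.1 and 55.9) it was above both GFP values. The change was -1.59 ± 0.22 for eIF4A (edgeR adjusted p = 2.1e-06) and -0.63 ± 0.19 for C1 (0.045). HSPA1B followed it, at -1.49 ± 0.18 for eIF4A (edgeR adjusted p = 1.1e-07) and -0.69 ± 0.16 for C1 (0.0058). Both eIF4A calls held in every alternative run. For C1, the HSPA1A call was lost without C1 input replicate 1 or 2 or GFP input replicate 2 (edgeR adjusted p = 0.35, 0.080 and 0.35), and the HSPA1B call without C1 input replicate 2 or GFP input replicate 2 (0.071 and 0.18).

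HSPH1 was 64.4 and 60.5 CPM in GFP inputs, 38.1 and 42.2 in C1, 33.9 and 37.3 in eIF4E and 21.6 and 26.7 in eIF4A. Every value of these 3 constructs was under both GFP values, with changes of -0.62 ± 0.17, -0.78 ± 0.18 and -1.30 ± 0.19 (edgeR adjusted p = 0.022, 0.0017 and 3.7e-06). The C1 call was lost without any 1 of the 4 libraries compared (edgeR adjusted p = 0.062 to 0.24). DNAJB1 was 43.2 and 48.0 CPM in eIF4E inputs against 26.3 and 31.6 in GFP, a change of 0.68 ± 0.20 (edgeR adjusted p = 0.016) that was lost with library-size scaling (log2 fold change 0.30, adjusted p = 0.32), with DESeq2 (0.16), without a count filter (0.081), and without eIF4E input replicate 2 or GFP input replicate 1 (0.18 and 0.16). DNAJB1 in CBX1 inputs, at 49.7 and 43.7 CPM, was as high but was not called (edgeR adjusted p = 0.066). BAG3 was called in no construct.

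In counts, 1 of 6 genes was higher for CBX1 (0.489% of 10019 rows called higher). For C1, 4 of 6 were lower (2.39% called lower), and for eIF4A 4 of 6 (2.48%). Both counts include HSPA1A and HSPA1B, whose calls may not be separate because reads can match both genes. The eIF4A inputs held only 17 and 30 counts of HSPA1A. For eIF4E, 2 of 6 were lower (6.09%) and 1 higher (6.5%). Library-size scaling moved the median of all rows to -0.38 for eIF4E and -0.40 for eIF4A. The lower calls of eIF4A then numbered 5 of 6, in a setting that lowered the rows as a whole. With a spread estimated over both fractions, 1 gene, HSPA8, was called for C1 and for eIF4E.

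**Figure D4:**
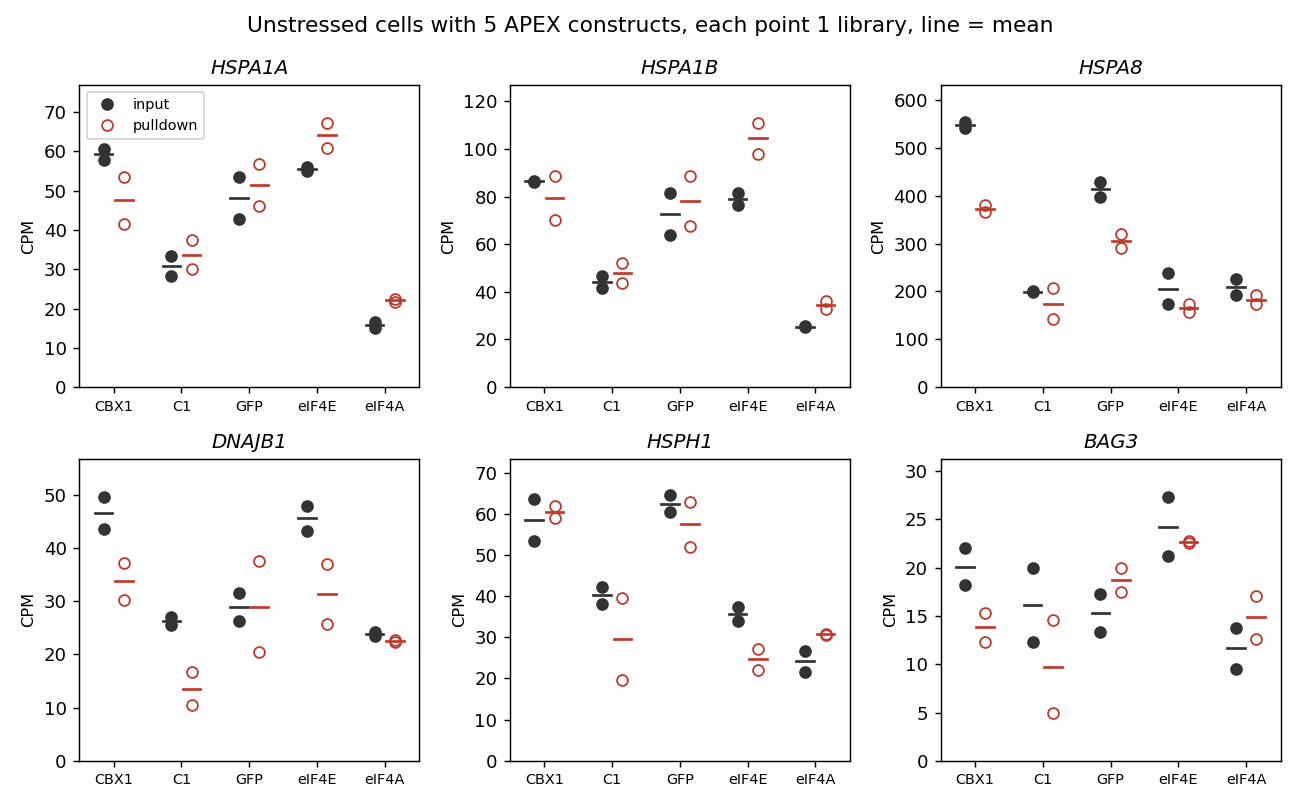
CPM of each gene in naive inputs (filled) and pulldowns (open) of the 5 constructs (axes start at 0; each point is 1 library and each line a mean). HSPA8 inputs of CBX1 and GFP lie above those of C1, eIF4E and eIF4A, and HSPA1A and HSPA1B are lowest in eIF4A.

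In pulldown over input of unstressed cells, HSPA8 in CBX1 was the 1 call among 6 genes and 5 constructs. Its pulldowns stood at 365 and 380 CPM and its inputs at 553 and 542, a log2 fold change of -0.55 ± 0.14 (edgeR adjusted p = 0.027; 2.31% of 12427 rows called lower). The call was lost with library-size scaling, which put the log2 fold change at -0.17 (edgeR adjusted p = 0.62), and without any 1 of the 4 libraries. HSPA8 had a negative value in the other 4 constructs as well, -0.44 in GFP, -0.31 in eIF4E, -0.20 in C1 and -0.19 in eIF4A. In C1 the pulldowns, at 207 and 142 CPM, lay on both sides of the inputs (199.97 and 199 CPM). The C1 value changed sign in 1 of 10 alternatives. With library-size scaling the values for eIF4E and eIF4A became 0.55 and 0.63. That scaling moved the median of all rows from near 0 to 0.89 for eIF4E and 0.82 for eIF4A, so HSPA8 remained under that median in both constructs.

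DNAJB1 was lowest in C1, with pulldowns at 10.4 and 16.7 CPM and inputs at 27.1 and 25.5, a log2 fold change of -0.93 ± 0.32 (edgeR adjusted p = 0.077). The value depended on which C1 pulldown was used. The log2 fold change was -0.67 without replicate 1 and -1.37 without replicate 2. HSPA1A and HSPA1B ranged from -0.32 to 0.49 and from -0.13 to 0.45 over the constructs, lowest in CBX1 and highest in eIF4A. No gene was called in C1, GFP, eIF4E or eIF4A, where 6.45%, 4.04%, 2.51% and 2.18% of rows were. With library-size scaling 3 were called for eIF4E and 5 for eIF4A, all higher, as 4462 and 3886 rows were over the whole table.

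The difference from GFP in pulldown over input was not called for any of the 6 genes with any construct (edgeR; 0.161% of rows for CBX1 and 0% for C1, eIF4E and eIF4A). Nor was that between eIF4A and eIF4E (0% of rows). Against GFP, an unadjusted edgeR p under 0.05 was found in 1045 rows for C1, 472 for eIF4E and 411 for eIF4A, of which none was called by edgeR, and DESeq2 called 0, 15 and 16. For C1 the edgeR count of 0 rows became 14 without C1 pulldown replicate 1 and 993 without replicate 2, and for eIF4A it became 7 without eIF4A pulldown replicate 1. Between eIF4A and eIF4E, 251 rows had such a p and DESeq2 called 0. These comparisons share the GFP libraries.

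**Figure D5:**
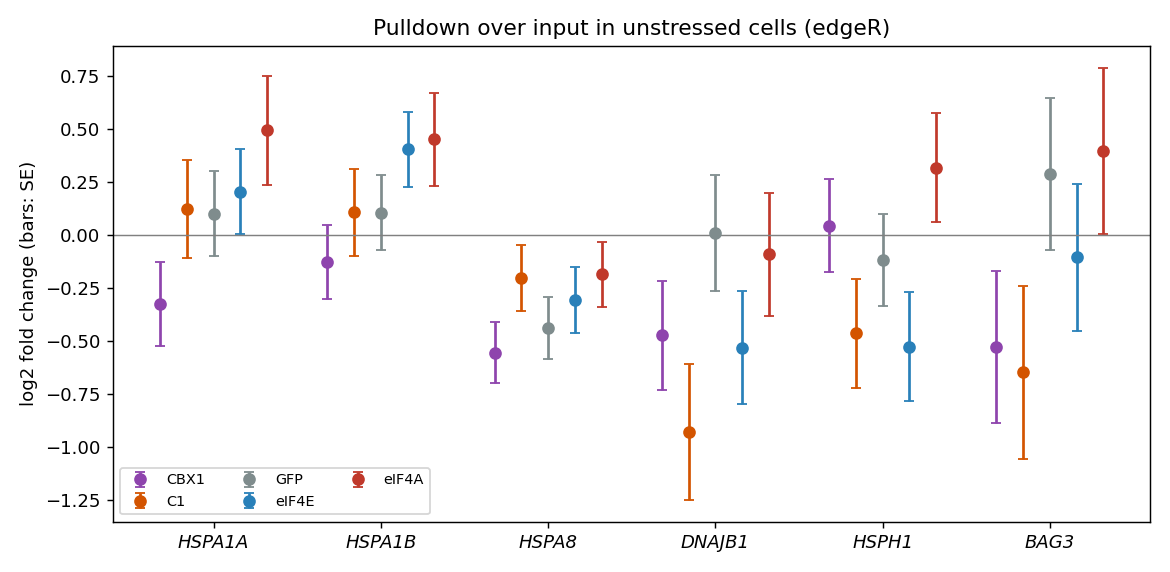
Log2 fold change of pulldown over input for each gene and construct in unstressed cells, with bars of 1 SE (edgeR). HSPA8 lies below 0 in all 5 constructs in the TMM fit shown. It flips above 0 with library-size scaling in eIF4E and eIF4A, and in 1 of 10 alternatives in C1. Only its CBX1 value of -0.55 was called.

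The rows whose profile over the 8 stress inputs was most like the mean centred profile of the 6 genes, among 9165 rows whose mean log2 CPM was 4 or more, were ENSG00000147133.14 (Pearson r = 0.987) and ENSG00000239305.5 (r = 0.983). That mean was not a profile that the 6 genes shared. HSPA1B came closest of them, at r = 0.90 and rank 73, whereas HSPA8 had r = -0.31 and rank 5591. Neither of the 2 rows was called for T20 over T0 in inputs (edgeR adjusted p = 0.40 and 0.13). These points share libraries and depth, and the tables used here give neither ID a name.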

How the data were processed

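The deposited values are raw counts of reads per Ensembl ID, made by the authors with cutadapt, HISAT2 and featureCounts on GRCh38, per the submitters' processing notes. No source used here gives versions, the strand setting or how reads with several matches were counted. Per the labels, cells took 500 µM biotin-phenol for 30 min and 1 mM H2O2 for 1 min, RNA was extracted with TRIzol, and libraries were made with a directional NEB kit. No molecular identifiers are named, so intervals cover counting error only.

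Counts were tested with edgeR 4.0.16 under R 4.3.3 (TMM, filterByExpr by group, robust glmQLFit, 2-sided quasi-likelihood F test, Benjamini-Hochberg over all tested rows; called at an adjusted p under 0.05). Input comparisons used all inputs of a table (8 or 10) and pulldown comparisons all 9 stress pulldowns, each with a mean per group. Pulldown over input used all 17 or 20 libraries. The SE was taken as the absolute log2 fold change over the root of its F statistic. Alternatives were library-size scaling, DESeq2 1.42.0, no count filter, a spread over both fractions, only the libraries compared, HSPA1A and HSPA1B summed, a replicate block and each library left out. No label ties replicate numbers to a shared culture or day. The main fits treated these numbers as names only, and the replicate block alone used them as a factor. The edgeR step was run on simulated counts drawn independently for each library. That run could not show how the test behaves where inputs of different groups vary together.

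The 6 genes and the lists were chosen with earlier results of these data known. The named genes are these 6, which were matched by ID; symbols and positions come from RefSeq (GRCh38.p14). That table holds 0 Ensembl IDs, so the wider chaperone list, the cell type markers and the rule for naming genes of like profile could not be applied, and HEK293T markers were not checked here.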

Additional observations from a re-analysis of the deposited data

How the results depend on the processing

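The number of the 6 genes called was recomputed under each alternative. The rows called over the whole table moved as well. For T20 over T0 in inputs they were 7 of 16678 with a spread over both fractions. They were 47 of 17837 with the replicate block and 2425 of 17837 with it crossed. The crossing swapped the T0 numbers, was run for this comparison only and has no basis in the labels. It goes with the sign of the correlation between these same inputs given below. Counts with the crossing, of rows or of the 6 genes, are therefore no evidence that more genes changed. T20 over hippuristanol gave 1614 of 17453 with only the libraries compared. Without a filter, DMSO over T0 gave 45 of 33570 and hippuristanol over T0 140. In pulldowns DESeq2 called 250 of 14839 for T20 over T0 and 344 for DMSO over T0. For T20 over T0 in inputs it was 2, and became 0 with a spread over both fractions, 1 with the replicate block (DNAJB1; HSPA1B then had an adjusted p of 0.16) and 4 with the block and the T0 numbers crossed; it ranged from 0 to 4 with 1 library left out. For T20 over DMSO in inputs it was 1, and became 0 with library-size scaling and with the common spread, and was 0 with either T20 input left out. For T20 over hippuristanol it was 1, and became 0 with the common spread and 2 with only the libraries compared. Where the main count was 0, it was 2 for DMSO over T0 in inputs without a count filter (0 to 1 with 1 library left out), and 2 for hippuristanol over T0 in inputs with DESeq2 and without a filter (0 to 2). In pulldowns, T20 over T0 gave 1 with library-size scaling, DESeq2 or the HSP70 pair summed (0 to 1), and DMSO over T0 gave 2 with DESeq2.

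In unstressed pulldowns over inputs, CBX1 went from 1 to 0 with library-size scaling and with any 1 library left out (0 to 0). Library-size scaling gave 3 for eIF4E and 5 for eIF4A, where TMM gave 0, and HSPH1 in eIF4E reversed from -0.53 to 0.35. GFP gave 1 with only the libraries compared. C1 gave 0 to 2 with 1 library left out, and C1 over GFP 0 to 1. In unstressed inputs, CBX1 over GFP went from 1 to 0 with library-size scaling, DESeq2 or the common spread, to 2 with only the libraries compared, and to 0 with any library left out. C1 over GFP went from 4 to 2 with DESeq2 and 1 with the common spread (1 to 3 with 1 library left out), and eIF4E over GFP from 3 to 1 with the common spread (2 to 3). The causes were not tested. For the 6 genes the replicate block changed no other count by over 1.5 times. Over all rows it took T20 over T0 in inputs from 167 to 47 (2425 with the T0 numbers crossed), T20 over hippuristanol from 325 to 80, the pulldown comparisons T20 over T0 from 86 to 46, DMSO over T0 from 104 to 62, hippuristanol over T0 from 63 to 28 and hippuristanol over DMSO from 9 to 0, and CBX1 over GFP in pulldown over input from 20 to 8. Deviations of same-numbered stress inputs from their group means correlated across 6051 rows, which are not independent, at -0.69 (T0 with T20), -0.77 (T0 with hippuristanol) and 0.65 (T20 with hippuristanol), and those of pulldowns at -0.04 to 0.04. Inputs of different groups thus varied together in a way that their numbers do not follow, and the fit without a block leaves this out. In stress pulldowns BAG3 rested on 1 to 44 counts and DNAJB1 on as few as 12, and the T0 replicates also differed beyond counting error: 95% Poisson intervals were 3.74 to 19.2 and 57.2 to 112 CPM for BAG3 and 149 to 211 and 311 to 424 CPM for HSPA8.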
